A study of Drosophila melanogaster with 4 samples.

Results

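Paired (Prd) is a transcription factor of the Drosophila melanogaster embryo, and the regions described here are places on the chromosome arms where peaks of Prd antibody signal stood close to one another. A peak counted as a member when its middle lay under 10 kb from the middle of another peak on the same arm, and an unbroken chain of such peaks is called a run. The list holds 1348 peaks, of which 777 lay on the arms 2L, 2R, 3L, 3R, X and 4. Of these 777, 261 peaks (33.6%, 95% Clopper-Pearson interval 30.3% to 37.0%) stood in 93 runs and 516 stood alone. The members were chosen by position alone, and every one of the 261 is included below with no filter on score or width.

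Prd is a pair-rule protein: together with other pair-rule factors it divides the early embryo into segments and sets up the expression of segment-polarity genes. It contacts DNA through a paired domain and a homeodomain, and paired-type homeodomains can bind as dimers to palindromic sites built on TAAT. Regulatory regions of developmental genes in the fly often hold several binding sites for 1 factor within a short stretch, and a gene can have several separate enhancers spread over kilobases. In chromatin immunoprecipitation followed by sequencing (ChIP-seq), crosslinked fragments bound by a protein are enriched with an antibody and compared with input DNA, and each region of excess is listed as a peak.

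The study set 2 ChIP libraries against 2 input DNA libraries, numbered 1 and 2 in each group. The ChIP libraries were made with anti-Prd RF12, an affinity-purified rabbit polyclonal antibody raised against the C-terminal part of Prd without its paired repeat. All libraries came from whole embryos collected over 0 to 12 h, so nuclei of all cell types and stages of that window were mixed, and the labels name no treatment. All came from the strain labelled Y cn bw sp, which carries y[1] and oc[R3.2] on the first chromosome. Its second chromosome has Gr22b[1] with Gr22d[1], then cn[1], and further CG33964[R4.2] as well as bw[1] and sp[1]. On the third it has LysC[1] and lab[R4.2], in addition to MstProx[1], GstD5[1] and Rh6[1]. The labels do not say whether the numbered libraries came from separate embryo collections.

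The authors deposited 1 peak list for the whole series, with a first base, a last base and 1 score for each peak, on FlyBase release 5. It has no value per library, so depth per library is unknown and no spread between replicates can be given. The values below describe that list. Position, score and width all come from the same contrast of ChIP with input that placed the peaks, so no difference between peaks in runs and peaks standing alone was tested. Intervals, where given, cover counting error only and treat peaks as independent, which neighbours in a run are not. A genome and gene annotation of release 5 were not used here, so regions are given by position, without gene names or sequence.

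Most of the neighbours within runs lay very close together. Between the middles of successive peaks, 59 distances were under 1 kb, 53 were from 1 to 2 kb and 19 from 2 to 3 kb. Thus 131 of the 168 neighbouring pairs in runs, or 78.0%, were under 3 kb apart, which is 43.7 pairs per kb of distance. From 3 to 10 kb there were 37 pairs or 5.29 per kb. Beyond the limit of a run the count was nearly level, with 4.2 pairs per kb from 10 to 20 kb and 3.85 per kb over 10 to 50 kb. Close neighbours on the arms were therefore mostly a matter of the first 3 kb, with 5.29 pairs per kb at 3 to 10 kb against 4.2 just past 10 kb.

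**Figure D1:**
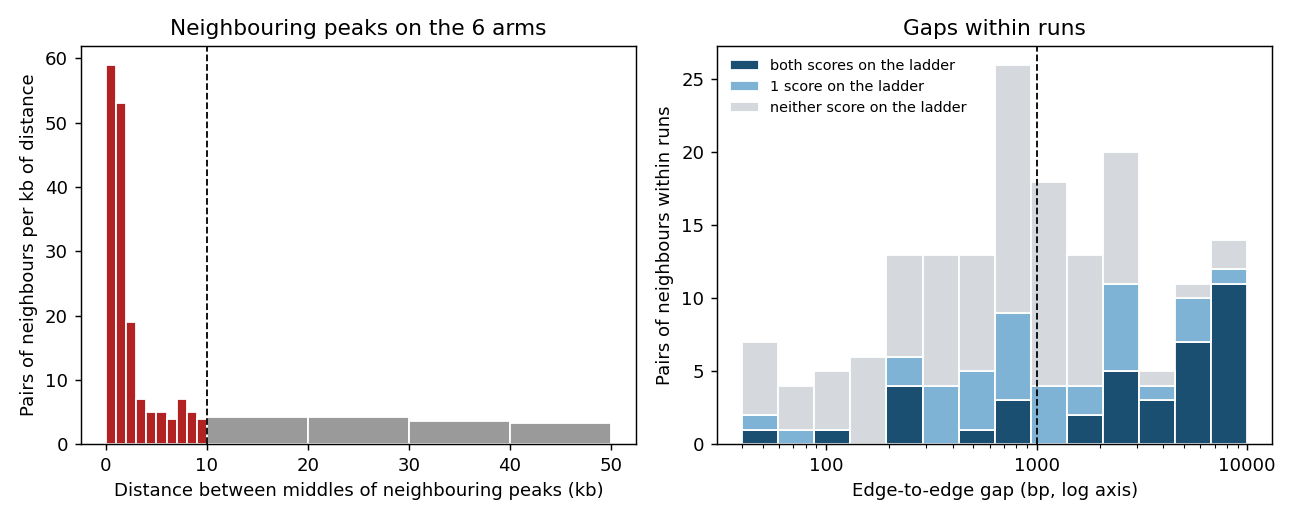
Left, number of neighbouring peak pairs per kb of middle-to-middle distance on the 6 arms, in red for pairs within runs and in grey beyond 10 kb (dashed line). Right, number of pairs within runs by edge-to-edge gap on a log axis, with the limit of 1 kb dashed and shading for how many of the 2 scores lay on the ladder, that is, matched a whole number of reads under 1 common background mean. The left panel falls to 5.29 pairs per kb at 3 to 10 kb after 59 and 53 in the first 2 bins, and in the right panel pairs with both scores on the ladder gather at the widest gaps.

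The rule cuts this distribution at a point with few pairs on either side. The widest pair inside it was on 2L, where peaks at 20787424 to 20787685 and 20797184 to 20797512 had middles 9793.5 bp apart and scores of 15.79 and 22.4. The closest pair left out was on 2R, where peaks starting at 12429352 and 12439342 had middles 10065 bp apart and scores of 9.61 and 40.14.

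Measured from edge to edge, the gaps had a median of 885.5 bp, the middle 50% lay between 362 and 2293 bp, and the range was 44 to 9498 bp. Gaps under 1 kb made up 90 of the 168, or 53.6% (45.7% to 61.3%), and their median was 372 bp. Among the 50% of the list with the highest scores, 30.2% of the gaps in runs were under 1 kb and the median gap was 1853 bp. The other 78 gaps had a median of 2439 bp. The smallest gap, 44 bp, lay in a run of 6 peaks on 3R, and no gap anywhere in the list of 1348 peaks was smaller. Only 11 gaps on the arms were under 100 bp, while 34 were from 500 bp to 1 kb and 40 from 1 to 2.5 kb.

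Runs were short and mostly small. There were 54 runs of 2 peaks, 21 of 3, 7 of 4, 9 of 5, 1 of 6 and 1 of 11. Spans had a median of 3588 bp and ran from 638 to 15145 bp: 17 runs spanned under 2 kb, 46 from 2 to 5 kb, 25 from 5 to 10 kb and 5 spanned 10 kb or more. The runs together spanned 427.5 kb, of which the peaks covered 101.7 kb or 23.8%. The most densely covered run was a pair on 2R from 3306058 to 3306695, with 92.9% of its span inside peaks, and the least densely covered was a pair on 3R from 25508196 to 25517427, with 4.43%.

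By their gaps the runs fell into 3 classes. In 29 runs with 78 peaks every gap was under 1 kb, in 45 runs with 97 peaks every gap was 1 to 10 kb, and 19 runs with 86 peaks held gaps of both classes. Of the 45 widely spaced runs, 38 were pairs and 7 were triplets. All 19 runs with both kinds of gap had at least 3 peaks by construction, and 9 of the 11 runs of 5 or more were among them. Median spans were 1851 bp for runs with gaps under 1 kb, 4619 bp for runs with both and 5330 bp for the widely spaced runs. The summed peaks covered a median of 62.4%, 29.0% and 14.1% of the span in these 3 classes, in the same order.

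Scores in runs were mostly low, with a tail of very high ones at widely spaced peaks. The 261 members had a median score of 13.68, a lower quartile of 10.75 and an upper quartile of 18.79, and the 516 peaks standing alone a median of 20.76 with quartiles of 13.68 and 35.11. Scores under 10 were held by 54 members (20.7%) and by 41 peaks standing alone (7.95%). Scores of 50 or more were held by 17 members (6.51%) and by 69 peaks standing alone (13.4%). The upper quartile of the members was thus below the median of the peaks standing alone.

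The high scores in runs stood mostly at widely spaced peaks. The 144 members with a neighbour under 1 kb away had a median score of 13.04 and an upper quartile of 16.41, and only 2 of them scored 50 or more. The 117 members whose neighbours were all 1 to 10 kb away had a median of 15.35 and an upper quartile of 24.94. Of these, 15 scored 50 or more, which is 12.8% and close to the 13.4% among peaks standing alone. Scores under 10 were about as frequent in both sets, at 20.8% of the members with a neighbour under 1 kb and 20.5% of the others. The widely spaced members therefore combined many low scores with a share of high ones.

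Among the highest scores of the whole list, the share in runs fell as more peaks were counted. Members made up 33.6% of arm peaks and 261 of the 1348 peaks of the whole list. Of the 25 highest peaks 7 stood in runs (28%), of the 100 highest 20 (20%), and of the 200 highest 32 (16%). Nearly all of these highest peaks were on the arms, with 0, 1 and 6 off them. The share among the 25 highest was thus near the 33.6% among arm peaks, and the shares among the 100 and 200 highest were below it. Of the 400 highest 62 stood in runs (15.5%), with 64 off the arms. No difference was tested. The 20 members among the 100 highest comprised 16 whose neighbours were all 1 to 10 kb away and 4 with a neighbour under 1 kb.

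Widths of members were similar to those of peaks standing alone in the median but reached further. The median was 319 bp for members (quartiles 249 and 446 bp) and 328.5 bp for peaks standing alone (quartiles 259 and 432 bp). All 8 arm peaks of 1 kb or wider were members, 6 of them with a neighbour under 1 kb away. The widest was on 2R, starting at 2234657, with 1933 bp and a score of 28.42, and it formed a run of 3 with a peak of 1481 bp starting at 2237285. Peaks standing alone were at most 976 bp wide.

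Within bands of like score the median width was larger for members, by amounts that were not tested. Among arm peaks with scores from 6 to 10 the median width was 249 bp for members and 242 bp for peaks standing alone, and from 10 to 15 it was 278.5 and 252 bp. From 15 to 20 it was 383.5 bp for members and 284 bp for peaks standing alone, and from 20 to 30 it was 411 and 337 bp. From 30 to 50 the medians were 423 bp for 15 members and 392 bp for 100 peaks standing alone. At 50 or more they were 612 bp for 17 members and 482 bp for 69 peaks standing alone. Members had the larger median in all 6 bands, by 7 bp in the lowest and by 130 bp in the highest. The share of arm peaks that stood in runs fell with score over the first 5 bands, from 56.8% below 10 through 46.1%, 34.5% and 21.6% to 13.0% at 30 to 50, and was 19.8% at 50 or more.

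**Figure D2:**
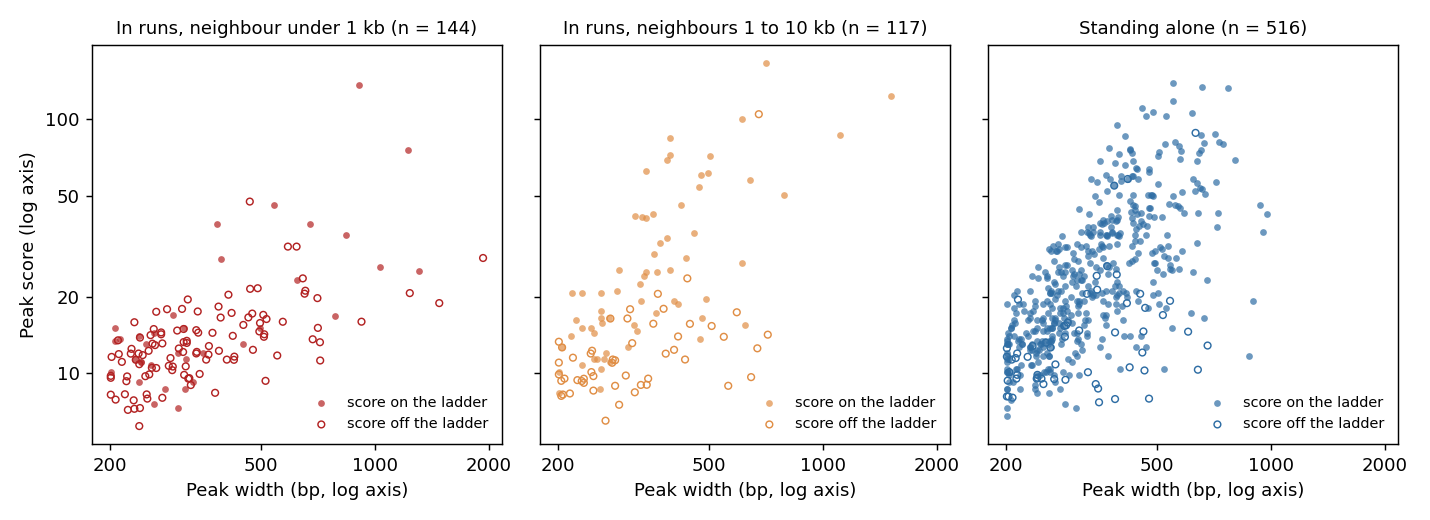
Peak score against peak width, both on log axes, for the members with a neighbour under 1 kb away, the members with neighbours 1 to 10 kb away only, and the arm peaks standing alone. Filled points have a score on the ladder of the common mean and open points do not. The left panel holds mostly open points below a score of 20 and most of the widest peaks, whereas the middle panel holds 15 peaks at 50 or more.

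Scores can also be read for the background behind them. MACS, the peak caller named in the list, sets the reads of a peak against a Poisson background that is the higher of a genome-wide and a local estimate. Under 1 common background mean, a score given as −log10 of the Poisson tail can take only certain values, 1 for each whole number of reads, and these form a ladder. A common mean of 56.19 reads placed 835 of the 1348 scores, or 61.9%, within 0.01 of a ladder value, where the ladder covers 5.56% of the scale at these scores. The number of reads behind such a score, k, is inferred and was not observed. For a score off the ladder, the nearest k is the number of reads with the closest ladder value. A score just past 0.01 counts as off the ladder, so the shares below depend on that tolerance.

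A smaller share of peaks in runs than of peaks standing alone lay on this ladder, and pairs with both scores on it were scarcest at gaps under 2.5 kb. Ladder scores were held by 101 of the 261 members (38.7%) and by 459 of the 516 peaks standing alone (89.0%). Among members with a neighbour under 1 kb the share was 24.3% (17.6% to 32.1%), and among members with neighbours 1 to 10 kb away only it was 56.4% (46.9% to 65.6%). The share also differed by run size, at 63.9% in runs of 2, 23.1% in runs of 3 or 4 and 17.7% in runs of 5 or more. In runs that spanned under 2 kb with every gap under 1 kb, all of them pairs, it was 50% of 30 peaks. Gap and run size go together in these runs, and their parts in the ladder shares were not told apart. By pairs, both scores were on the ladder in 10 of the 90 pairs with gaps under 1 kb, in 5 of the 40 with gaps of 1 to 2.5 kb, in 5 of the 14 at 2.5 to 5 kb and in 18 of the 24 at 5 to 10 kb. Neither score was on it in 61 of the 90 pairs with gaps under 1 kb and in 3 of the 24 at 5 to 10 kb.

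The ladder shares also differed within bands of like score. From 10 to 15, 28% of 100 members and 81.2% of 117 peaks standing alone had ladder scores. From 15 to 20 the shares were 41.7% of 48 members and 91.2% of 91 peaks standing alone, and from 20 to 30 they were 63.0% of 27 members and 93.9% of 98 peaks standing alone. At 50 or more they were 94.1% of members and 95.7% of peaks standing alone. What sets a score off the ladder was not tested.

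Among the runs, 32 had ladder scores throughout and 35 had none. Of the 32, 29 were pairs, 2 were triplets and 1 had 5 peaks. Widely spaced runs supplied 24 of the 32. Runs that spanned 5 to 10 kb with gaps of 1 to 10 kb only had ladder scores at 81.8% of their 44 peaks, and runs of 2 to 5 kb with gaps of both classes at 11.8% of their 51 peaks. Several members with ladder scores shared 1 score exactly: 5 members scored 11.37, which is a k of 115 reads, 4 scored 15.07 with a k of 126, and 3 scored 20.76 with a k of 141. Exact ties also occurred among scores counted as off the ladder. Peaks on 3R at 13859643 and 25517220 and on X at 1825205 all scored 9.53, with a nearest k of 109. Their runs are among the 35 with no ladder score, a count that rests on the tolerance. For the 101 members with ladder scores the inferred k ran from 101 to 368 reads, with a median of 132 or 2.35 times the common mean, and for the 459 peaks standing alone with ladder scores from 99 to 333 with a median of 144 or 2.56 times.

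In most runs no peak stood far above the next. The ratio of the highest to the second highest score in a run had a median of 1.32 and ranged from 1.01 to 10.3. It was 2 or more in 19 runs and under 1.2 in 33. The median ratio was 1.43 in widely spaced runs, 1.38 in runs with gaps under 1 kb and 1.14 in runs with both. In runs of 5 or more it was 1.14, although a larger run has more peaks from which a close second can come. Of the 19 runs led by a factor of 2 or more, 17 were pairs and 15 were widely spaced.

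The 3 steepest of these were pairs in which a high-scoring peak had a low-scoring companion several kilobases off. On chromosome 4 a peak from 855691 to 856803 scored 86.64 over 1113 bp, and its companion from 865192 to 865392 scored 8.4 at the smallest width of the list, 201 bp, a ratio of 10.3. On 2L a peak from 3657335 to 3657729 scored 84.64, and a peak 5279 bp before it scored 12.37, a ratio of 6.84. On chromosome 4 the run from 89287 to 98546 paired scores of 54.29 and 10.75, a ratio of 5.05. The next, on 3R from 13440899 to 13443191, was the only one of the 10 runs with the highest peaks in which every gap was under 1 kb: a peak of 1223 bp scored 75.52 and the peak 572 bp before it scored 15.07.

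**Figure D3:**
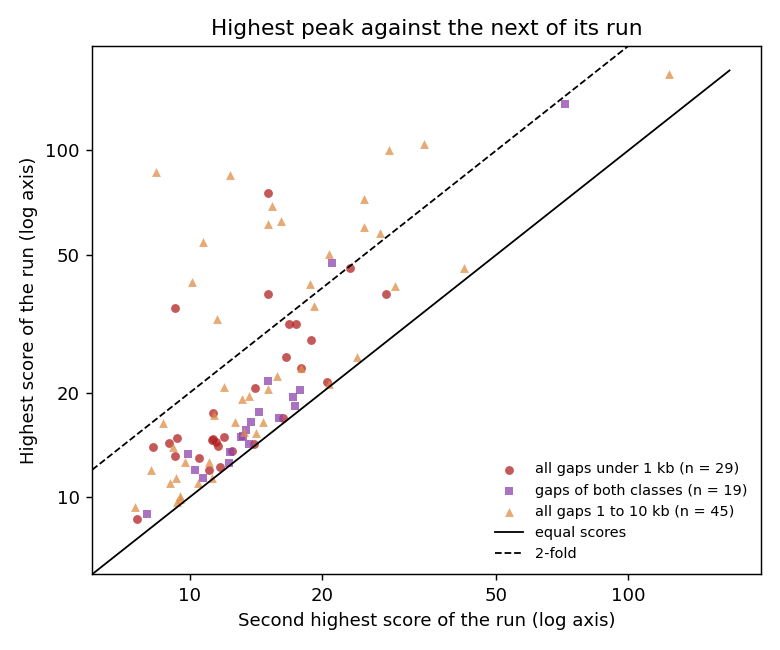
Highest score of each of the 93 runs against the second highest score of the same run, on log axes, by gap class. The solid line marks equal scores and the dashed line a 2-fold ratio, and 19 runs lie on or above the dashed line, 15 of them with all gaps from 1 to 10 kb.

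The highest-scoring peak was also the widest of its run in 53 of the 93 runs, or 57.0% (46.3% to 67.2%). This held in 31 of the 45 widely spaced runs, in 18 of the 29 runs with gaps under 1 kb and in 4 of the 19 runs with both. These classes also differed in run size, with 3 or more peaks in 7, 13 and 19 of their runs, in the same order. A run with more peaks has more that can be the widest. The highest peak was the widest in 35 of the 54 pairs, where either peak must be the wider unless both are equal, and in 2 of the 11 runs of 5 or more. In the 39 runs of 3 or more the highest peak was the first in 11, the last in 16 and an inner one in 12. Inner peaks made up 75 of the 153 peaks of these runs. The share of inner places, summed over the 39 runs with each run counted once, was 17.4, and the difference from 12 was not tested. Inner peaks had a median score of 12.26 and a median width of 302 bp (n = 75), and peaks at the ends of these runs 14.07 and 331 bp (n = 78).

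Within runs, only 1 pair of neighbours scored 50 or more on both sides. It was on 2R, where the peak from 21070286 to 21070992 with a score of 166.55, the highest of the list, stood 6023 bp from the peak at 21077016 to 21078526 with 123.49. The second peak was the wider one, at 1511 bp against 707 bp, and both scores were on the ladder, with k of 368 and 313 reads. The second highest run was on 3R from 788483 to 799190 and had 5 peaks with ladder scores throughout. In order along the arm they scored 71.72, 10.14, 26.25, 136.38 and 25.38, with gaps of 5066, 711, 219 and 1668 bp. The third peak, 1035 bp wide, and the fourth, 907 bp wide, were separated by 219 bp. In this run the highest score was 1.90 times the second and 13.4 times the lowest, the widest range of any run.

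Of the remaining runs with the highest peaks, those on 3R, 3L and 2R paired a leading peak with a moderate one. On 3R from 6500866 to 6503641 the scores were 104.56 and 34.13 across a gap of 1709 bp, and the score of 104.56 was the only one of the 17 scores of 50 or more in runs that lay off the ladder. On 3L from 9039995 to 9048326 the scores were 100.33 and 28.49 across 7285 bp. On 2R from 11705991 to 11709208 they were 24.94 and 72.34 across 2481 bp, and on 3L from 14664720 to 14667452 they were 16.14 and 62.5 across 2168 bp. The triplet on 3L from 21469827 to 21477383 held scores of 14.02, 15.43 and 69.22 in order along the arm, all on the ladder. In each of these 5 runs the highest score was between 2.90 and 4.49 times the second.

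The 11 runs of 5 or more peaks held 62 peaks. Apart from the run at 788483 on 3R, their highest scores lay between 12.52 and 47.38. Among the 62 peaks 37 of the 51 gaps were under 1 kb, and 11 peaks (17.7%) had ladder scores, of which 5 belonged to that 1 run. The 28 runs of 3 or 4 peaks were similar, with 37 of 63 gaps under 1 kb, ladder scores at 21 of 91 peaks (23.1%) and a median score of 13.27, where the runs of 5 or more had 13.04. In the 11 runs of 5 or more, between 23.4% and 67.8% of each span was covered by peaks. The spans of 9 of the 11 were under 6 kb, from 2760 to 5839 bp.

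The largest run had 11 peaks on 3R from 4724934 to 4738470 and fell into 2 groups. Its first 5 peaks scored 7.32, 13.25, 21.13, 47.38 and 19.76. After a gap of 4413 bp came 6 narrower peaks of 238 to 283 bp, which scored 13.0, 11.96, 10.86, 14.37, 17.87 and 10.49. Each of the 2 groups had gaps under 1.4 kb, and 3 of the 11 scores were on the ladder.

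The other large runs ranged from nearly even scores to a spread of 3.01 times. The ratio of highest to lowest score had a median of 2.29 over the 11 runs of 5 or more. It was 1.45 over the runs of 2 and 1.60 over all 93 runs, and this ratio can only grow as a run gains peaks. On 3L from 22799585 to 22803866 the 5 scores were 12.27, 12.52, 11.09, 11.79 and 11.37, so that the highest was 1.13 times the lowest. On 3R from 873150 to 877982 they were 13.92, 15.77, 14.48, 16.98 and 15.95, a ratio of 1.22, and on 3R from 714402 to 719541 the 6 scores ran from 9.31 to 14.24. On 3R from 235116 to 237875 they ran from 8.27 to 13.61. The 2 runs on 2L were from 9975322 to 9980183, with scores of 11.3 to 19.52, and from 12559059 to 12562899, with 7.18 to 21.61, a ratio of 3.01. On X the runs lay from 1825205 to 1831043 with scores of 6.51 to 14.94, from 12825565 to 12830183 with 8.26 to 20.38, and from 21954139 to 21957250 with 11.85 to 31.51, and their ratios were 2.29, 2.47 and 2.66. None of the scores in the runs on 2L and X was on the ladder.

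**Figure D4:**
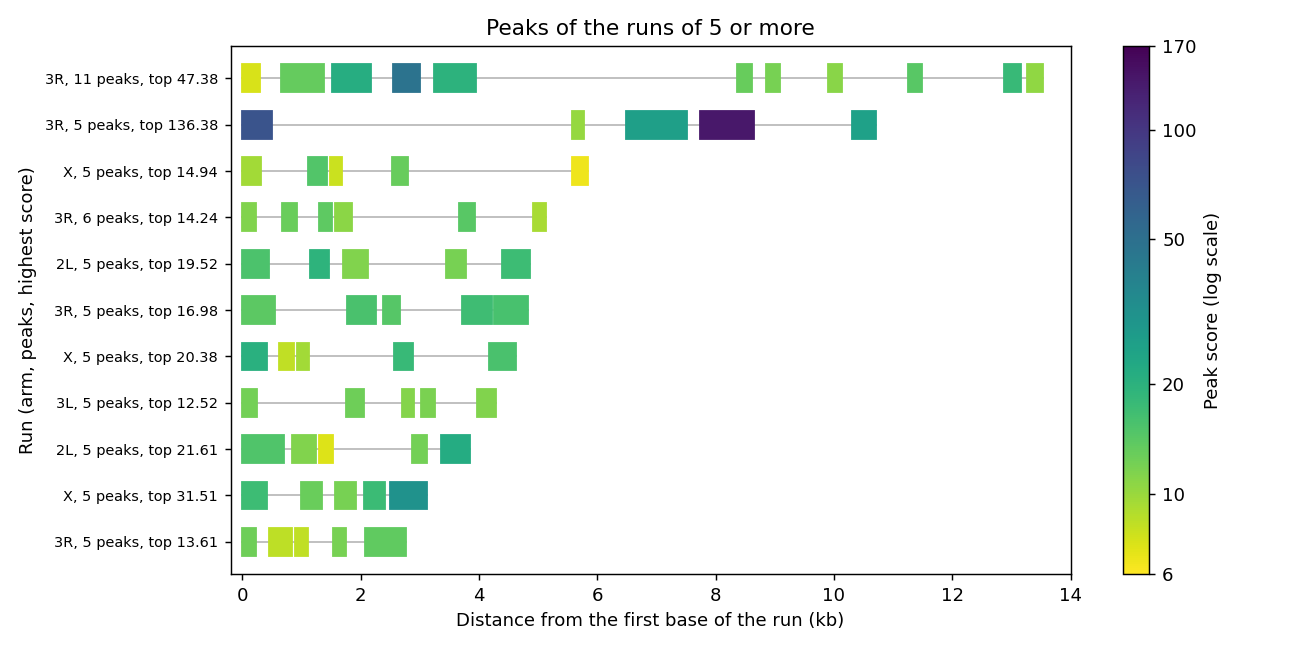
Layout of the 11 runs of 5 or more peaks, longest at the top. Each box is a peak drawn to scale along the run from its first base, in kb, and coloured by score on a log scale. The 2 longest runs reach 13.5 and 10.7 kb and hold the darker boxes, and the other 9 stay under 6 kb, with 1 peak above 30 among them.

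The 3 runs with the longest spans included, beside the run of 11, a triplet on chromosome 4 and a triplet on 2L. On chromosome 4 from 43592 to 58736 peaks of 12.67, 9.8 and 16.43 were spread over 15145 bp. On 2L from 20183323 to 20197450 peaks of 16.52, 20.76 and 21.17, all on the ladder, stood 6708 and 6643 bp apart. On 2R no run had more than 4 peaks. Of those with 4, the one with the highest peak, from 2299387 to 2302195, scored 23.63, 9.94, 10.65 and 17.92 with none on the ladder.

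The arms differed in how their runs were built. The share of peaks in runs was 64.3% on chromosome 4 (9 of 14, interval 35.1% to 87.2%), 40.2% on X (47 of 117), 34.6% on 2L (53 of 153), 34.2% on 3R (69 of 202), 32.2% on 2R (47 of 146) and 24.8% on 3L (36 of 145). All 4 runs of chromosome 4 were widely spaced, with a median span of 9481 bp. On X 11 of the 14 runs had 3 or more peaks, and on 3L 3 of 15 did.

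X had the lowest maximum score and the lowest share of ladder scores among members. Its 47 members scored at most 31.51, whereas the highest member scored between 84.64 and 166.55 on 2L, 2R, 3L, 3R and 4. Ladder scores were held by 5 of these 47 members (10.6%) and by 94.3% of the peaks standing alone on X. On the other arms the members' share was 37.7% on 2L, 42.0% on 3R, 44.7% on 2R, 52.8% on 3L and 77.8% on chromosome 4. The median score of members was below that of peaks standing alone on every arm, by arm 13.42 and 19.77 on X, 13.11 and 18.41 on 2L, 13.25 and 23.23 on 3R, 14.78 and 20.76 on 2R, 14.9 and 20.76 on 3L, and 16.43 and 32.69 on chromosome 4.

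On 3L and 3R the share of peaks in runs was larger at the centromere end, and on 2R and X this depended on the window. Arms were divided into 5 sections of 20% of their highest peak end, counted from the centromere, which lies at the high coordinates of 2L, 3L and X and at the low ones of 2R and 3R. In the first section 23 of 42 peaks stood in runs on 2R, 22 of 39 on 3L and 41 of 71 on 3R. In the next section there were 4 of 26 on 2R, 2 of 24 on 3L and 7 of 30 on 3R. On X the share in runs lay between 36% and 47.1% in all 5 sections, and on 2L the fullest section was the middle one, with 17 of 31 peaks. Over the 5 large arms 50.7% of the 207 peaks in the first section were members, against 23.1% to 30.9% in the others. The 2 Mb nearest the centromere gave another order of the arms: members made up 21 of 29 peaks on 3R (72.4%), 15 of 21 on 3L (71.4%), 8 of 13 on X (61.5%), 5 of 13 on 2R (38.5%) and 2 of 7 on 2L (28.6%). On the rest of each arm the shares were 27.7% on 3R, 16.9% on 3L, 37.5% on X, 31.6% on 2R and 34.9% on 2L. These shares count peaks, and the members in the 2 Mb window came from few runs. There were 4 runs on 3R, 5 on 3L and 2 on X, against 17, 10 and 12 on the rest of these arms. The larger share thus showed in both windows on 3L and 3R and in the 20% section on 2R. On X it showed in the 2 Mb window only, from 2 runs.

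**Figure D5:**
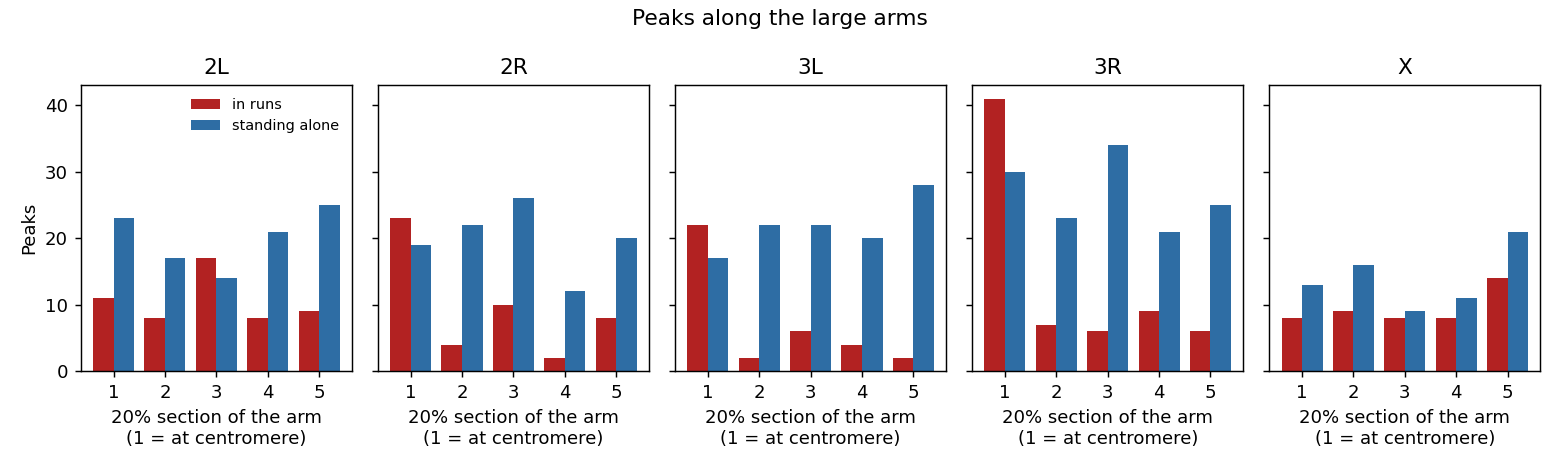
Number of peaks in runs (red) and of peaks standing alone (blue) in each 20% section of the 5 large arms, with section 1 at the centromere. On 2R, 3L and 3R the red bar exceeds the blue one in the first section only, with 23, 22 and 41 peaks in runs, and on 2L it does so in the middle section.

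Of the 123 bins of 1 Mb that held a peak on the 6 arms, 62 had no run, 42 had 1, 11 had 2 and 8 had 3 or 4. The bin of 2R from 2000001 to 3000000 had 11 of its 12 peaks in 4 runs, and none of those 11 scores was on the ladder. The last megabase of 3L with peaks, from 24000001, had 10 of 11 peaks in 4 runs, 2 of them on the ladder, and the first 1000000 bp of 3R had 21 of 25 peaks in 4 runs, 7 of them on the ladder. By contrast, the bin of 2L from 20000001 to 21000000 had 9 of 15 peaks in 4 runs with 7 on the ladder. The bin of 3R from 2000001 to 3000000 had 6 of 13 peaks in 3 pairs, with all 6 on the ladder. These pairs scored 12.01 and 20.76 at 2532080, 11.06 and 12.67 at 2646197, and 38.61 and 28.04 at 2737907. In the bin of 3R from 12000001 to 13000000 a single pair, from 12795261 to 12803949, scored 50.34 and 20.76.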

How the data were processed

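ChIP and input DNA were sequenced from embryos, 2 libraries each. The submitters' processing notes name BWA, MACS2 and CASAVA (1.7.0.2 and 1.7.0.3), with build BDGP5. The list is in GFF format on FlyBase release 5, from MACS, per the file headers. The authors deposited 1 score per peak without naming the quantity. Not given in the sources used here: thresholds, pooling of replicates and handling of reads with several alignments.

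Runs, gaps, ratios and medians were computed from the list with Python 3.11.15, numpy 2.4.6, pandas 2.3.3 and scipy 1.17.1. Gaps count the bases between peaks. The ladder mean was fitted over the whole list from 20 to 150 reads in steps of 0.01 and then 0.001, with a tolerance of 0.01. No test between groups was made. Runs named are those of 5 or more peaks, the 10 with the highest peaks, the 3 longest, the largest on each arm, the runs with the smallest and widest gap and pairs with both scores 50 or more. Others named (the most and least covered, the widest peaks, ratios of 5 or more, the bins, and pairs in 2 bins of 3R) were chosen after their values were seen. The members and lists were chosen with earlier results of these data known. The available gene table is on release 6, so it was not used and motifs were not searched. Run building and the ladder fit were tested on simulated data. The other spacings, merging, score limit and exclusions are given in the closing section.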

Additional observations from a re-analysis of the deposited data

How the results depend on the processing

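Of 63 values from 7 alternatives to 9 results, 42 stayed within 1.5 times the count or within the 95% interval of the value as reported, 19 moved past it and 2 changed sign. Merging peaks under 1 kb apart left 142 peaks in runs, 20.7% of arm peaks, no gap under 1 kb by construction (0%), a median gap of 2439 bp and a score difference of -5.47 (runs minus alone). Among the 50% of peaks with the highest scores there were 92 peaks in 39 runs, a share of 18.7%, with 30.2% of gaps under 1 kb, a median gap of 1853 bp, a score difference of -5.31 and a median ratio of highest to second score of 1.504. The difference in median width, -9.5 bp as reported, was 19 bp after merging and 53 bp among the 50% with the highest scores, so the sign of that small difference is not stable; the cause was not tested. A spacing of 5 kb gave a share of 27.7% in runs and 62.9% of gaps under 1 kb. A spacing of 20 kb gave 41.8% and 42.9%, a median gap of 1409 bp and a score difference of -5.99. Without 2 Mb at the centromere end of each large arm 30.3% of peaks stood in runs. Edge-to-edge distances and leaving out the runs of 6 or more moved none of the 9 results past these limits.

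No paired analysis was possible because no value belongs to a single library, and leaving out a library was not possible for the same reason. Depth is unknown, signal below the authors' threshold is not in the list, and inferred reads rest on the fitted mean.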

Other observations

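The same rule applied to the 6 sequences with names ending in Het, which hold heterochromatin assigned to a chromosome, put 75 of their 99 peaks (75.8%, 66.1% to 83.8%) in 21 runs, of at most 8 peaks. Of the 54 gaps in these runs 40 were under 1 kb, and the median gap was 600.5 bp. There the peaks in runs scored higher in the median than the 24 standing alone, with 13.34 and 11.19, and were wider, with 339 and 290.5 bp. On the chromosome arms the order of the median scores was the opposite. Ladder scores were held by 44% of the Het peaks in runs and by 70.8% of those standing alone. The highest score in a Het run was 29.17. These differences were not tested.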
